A study of Oryza sativa Japonica Group with 6 samples.

Results

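JAZ proteins are the repressors that keep jasmonate responses switched off in plant cells. In rice, 13 genes carry a JAZ number, and all 13 were represented on the array by 15 probe sets, each paired with exactly 1 gene. They were taken by a rule on names from the 17905 genes that had at least 1 unshared probe set: a symbol or synonym that reads JAZ and a number once a leading Os is dropped. The family was chosen by the measured signals of OsJAZ8 and OsJAZ9, which were higher in synergids than in antipodals in an earlier look at the same 6 arrays. For that pair the difference between the cell types is therefore given as a description with no test.

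The samples were wild-type rice of the japonica cultivar Katy, grown in a greenhouse under long days, with no treatment beyond dissection. The first group was synergid cells (3 arrays), which sit beside the egg cell where the pollen tube enters the embryo sac. They were set against antipodal cells (3 arrays), which lie at the opposite, chalazal end. Per the labels' protocols both were dissected from ovules at anthesis without enzymes, and RNA went through 2-cycle amplification. The protocol for labelling RNA refers to egg cells and zygotes instead, and how many cells went into an array is not stated for synergids or antipodals. The labels call the arrays biological replicates without naming separate plants, so the spread on which p-values rest may be partly technical.

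Jasmonate acts through its conjugate with isoleucine, which joins a JAZ protein to the F-box receptor COI1 and so marks the JAZ protein for destruction. Until then a JAZ protein binds MYC-type transcription factors through its Jas domain. Through the TIFY domain it binds the adaptor NINJA, which brings in TOPLESS-type co-repressors. Most JAZ genes are themselves induced by jasmonate, which gives a negative feedback. In rice florets jasmonate is known for driving the opening of the spikelet at anthesis, the stage at which these cells were collected.

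The JAZ numbers of rice are not unique, because 11 of the 13 genes also carry another gene's number as a synonym in the RefSeq gene table. OsJAZ8 here is LOC4347164 (OsTIFY10c), but OsJAZ8 is also a synonym of LOC4347000 (OsTIFY6b), called OsJAZ4 here. OsJAZ9 here is LOC4331832 (OsTIFY11a), but OsJAZ9 is also a synonym of LOC4345625 (OsTIFY6a), called OsJAZ3 here. Each gene is called by the number that it holds both with and without the Os prefix, a choice that gave exactly 1 name for each of the 13 genes. The OsTIFY name, which is unique, is given at first mention.

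On these arrays the signal is a linear brightness of a probe set, with the same trimmed mean of 500.1 on every array as deposited. Differences are the synergid mean minus the antipodal mean of log2(signal + 16), which understates the change of dim probe sets. They were fitted with limma over all 34355 probe sets left after the dimmest 40% were dropped, with Benjamini-Hochberg adjustment over all of them. A probe set is called when its adjusted p is under 0.05. Signals of different probe sets depend on their probes, so levels are compared between arrays and not between genes. An array reads all RNA of a sample, so fewer cells of a type and less RNA per cell cannot be told apart.

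Antipodal array 2 stood apart. Its median signal was 170.3, against 46.5, 67.1 and 63.4 on synergid arrays 1, 2 and 3 and 63.5 and 54.4 on antipodal arrays 1 and 3. It correlated with the other arrays at 0.734 to 0.783 (Pearson r across tested probe sets), whereas the other arrays correlated with each other at 0.842 to 0.93. Values without this array are given beside each tested JAZ probe set. None of the synergid and egg cell markers sought by name (MYB98, ES4, ECA1, EC1, BBM1) was found in the tables used here, so the labelled cell types were not checked by markers of their own.

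Of the 15 JAZ probe sets, 13 passed the filter on dim probe sets, and with it 11 of the 13 genes. OsJAZ8 and OsJAZ9 aside, 0 of the other 11 tested probe sets were called in the limma fit, beside 0.32% of all tested probe sets (110 of 34355: 0.256% higher and 0.064% lower in synergids). The array-by-array plot of the 15 probe sets shows most of the family bright on every array and OsJAZ2 and OsJAZ5 near the floor.

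**Figure D1:**
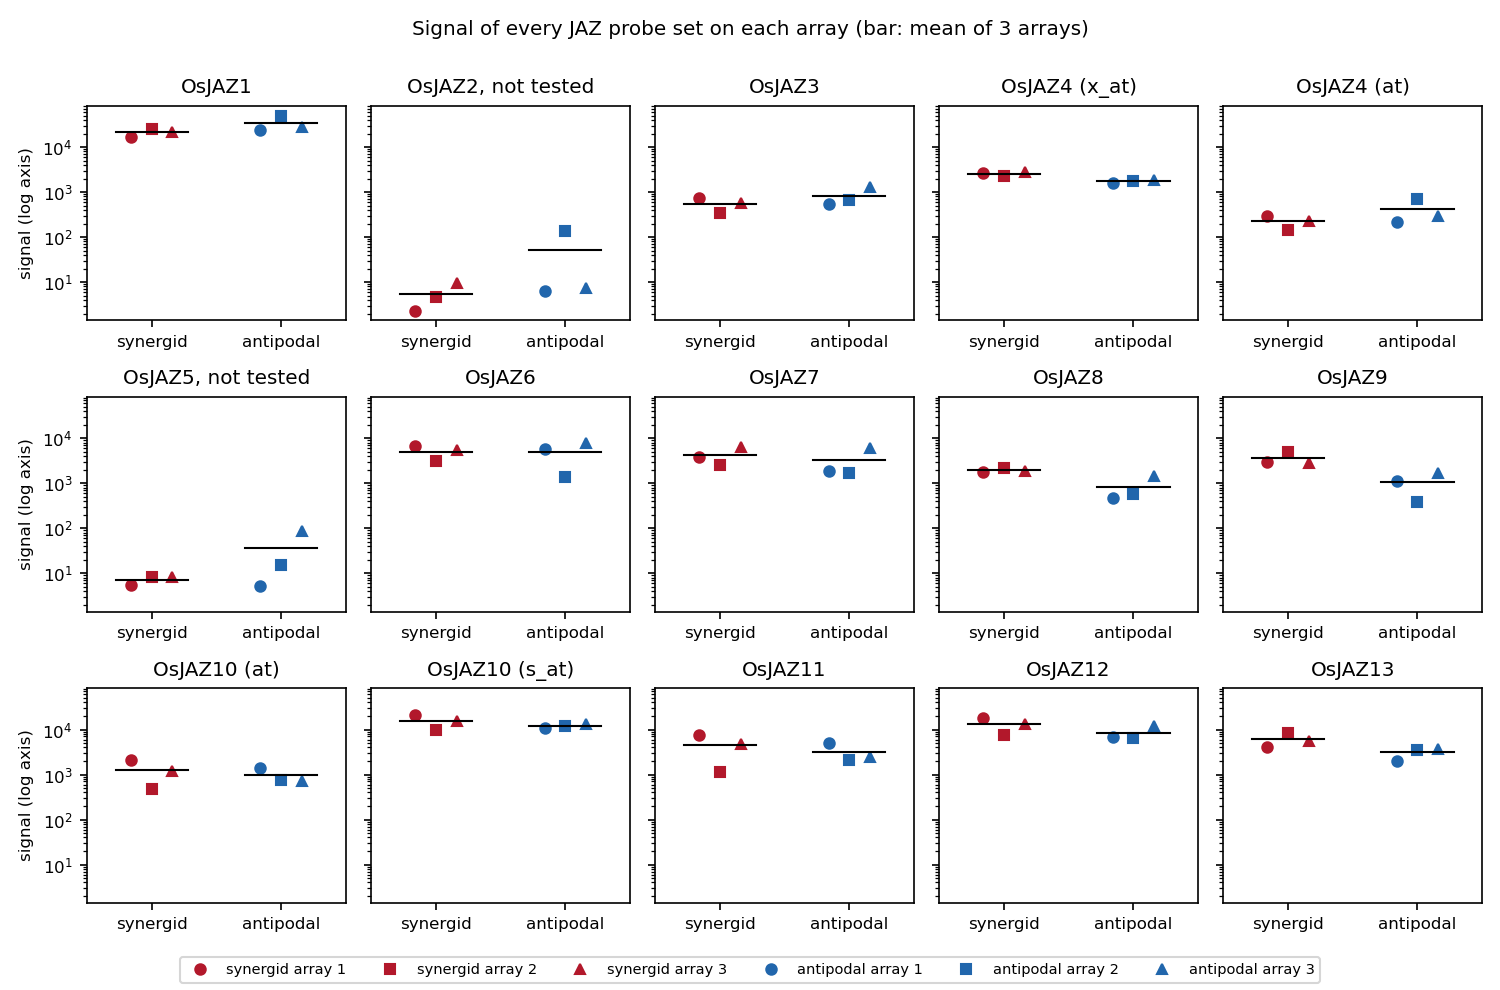
Signal of each JAZ probe set on the 3 synergid arrays (red, left) and the 3 antipodal arrays (blue, right) on a shared log axis, with bars at the mean of 3 arrays. OsJAZ8, OsJAZ9, OsJAZ13 and 1 of the 2 OsJAZ4 probe sets show no overlap between the cell types, and OsJAZ2 and OsJAZ5 stay below a signal of 16 except on 1 antipodal array each.

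The OsTIFY11 subgroup comprises OsJAZ9 to OsJAZ13. OsJAZ9 (OsTIFY11a, LOC4331832), a jasmonate repressor that in rice has been linked to salt tolerance, had signals of 2952, 5066 and 2866 on synergid arrays 1, 2 and 3. On antipodal arrays 1, 2 and 3 it had 1143, 395 and 1678. Every synergid array lay above every antipodal array, and the highest and lowest values of all 6 both fell on arrays numbered 2. The synergid mean was 3628 ± 1246 and the antipodal mean 1072 ± 645 (SD, n = 3 each), a log2 difference of 1.92 (SE 0.48) or 3.78-fold. Without antipodal array 2 the log2 difference was 1.33 (SE 0.37).

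OsJAZ13 (OsTIFY11e, LOC4348531) followed in the subgroup, with 4036, 8409 and 5575 on the synergid arrays, against 2029.9, 3585 and 3753 on the antipodal ones. The cell types again did not overlap, and synergid array 2 was again the brightest. The gap between the dimmest synergid and the brightest antipodal array was small beside the spread within each cell type. The synergid mean was 6007 ± 2218 and the antipodal mean 3123 ± 950.0 (SD, n = 3 each). The log2 difference of 0.93 (SE 0.37) was not called by limma (adjusted p = 0.523), and its adjusted p ranged from 0.148 to 0.999 over the other settings. Without antipodal array 2 it was 1.05 (SE 0.39).

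OsJAZ12 (OsTIFY11d, LOC4348533) had 18073, 7656 and 13220.2 on the synergid arrays, against 6989, 6453 and 11729 on the antipodal ones. Here synergid array 2 was the dimmest of its group and overlapped the antipodal range. The log2 difference was 0.60 (SE 0.37, limma adjusted p = 0.714), and 0.43 without antipodal array 2.

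OsJAZ11 (OsTIFY11c, LOC4331833) had 7731, 1160.3 and 4715 on the synergid arrays, against 4903, 2066 and 2442 on the antipodal ones. The synergid arrays held both the highest and the lowest value, a 6.66-fold range, the widest within synergids among the tested JAZ probe sets. Its log2 difference was 0.26 (SE 0.56, limma adjusted p = 0.929) with all arrays, 1.05 without synergid array 2, 0.01 without antipodal array 2 and -0.31 without synergid array 1. Neither sign of the difference therefore holds for OsJAZ11 across single arrays.

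OsJAZ10 (OsTIFY11b, LOC4331834), whose overexpression in rice has been reported to enlarge grains, was read by a pair of probe sets. Its gene-specific probe set had 2071, 471 and 1214 on the synergid arrays, against 1406, 756 and 723 on the antipodal ones. The other, with a suffix for probes shared between transcripts, had 21434, 9744 and 15209 in synergids and 10617, 11779 and 13541 in antipodals. Both placed synergid array 1 highest and synergid array 2 lowest of all 6 arrays. Their log2 differences of 0.21 (SE 0.51) and 0.30 (SE 0.33) were not called by limma (adjusted p = 0.937 and 0.848). Without antipodal array 2 they were 0.07 and 0.29. The gene-specific value was -0.27 without synergid array 1 and 0.78 without synergid array 2.

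OsJAZ9, OsJAZ11 and OsJAZ10 are consecutive genes in the RefSeq annotation, with 0 annotated genes between neighbours, and OsJAZ13 and OsJAZ12 lie with 3 genes between them. The neighbours OsJAZ11 and OsJAZ10 had like patterns over the arrays, while OsJAZ9 differed from both. On synergid array 2, OsJAZ9 was 1.49 log2 units above its own mean over the 6 arrays, while the adjacent OsJAZ11 was at -1.45 and OsJAZ10 at -1.04 and -0.44. On synergid array 1 OsJAZ11 was at 1.27 and OsJAZ10 at 1.06 and 0.69. OsJAZ13 was at 1.01 on synergid array 2 and OsJAZ12 at -0.38.

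The OsTIFY10 subgroup comprises OsJAZ6, OsJAZ7 and OsJAZ8. OsJAZ8 (OsTIFY10c, LOC4347164), a repressor studied in rice for its part in jasmonate-induced resistance to bacterial blight, had 1793, 2186 and 1850.2 on the synergid arrays. On the antipodal arrays it had 477, 578 and 1431. The synergid arrays lay close together, within a 1.22-fold range, and the antipodal arrays spread over a 3-fold range with array 3 nearest to the synergids. The synergid mean was 1943 ± 212 and the antipodal mean 829 ± 524 (SD, n = 3 each), a log2 difference of 1.38 (SE 0.43) or 2.6-fold. Without antipodal array 2 it was 1.21 (SE 0.46).

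OsJAZ7 (OsTIFY10b, LOC4343899) had 3862, 2536 and 6532 on the synergid arrays, against 1905, 1719.6 and 6193 on the antipodal ones. Array 3 was the brightest in both cell types, and the groups overlapped. The log2 difference was 0.55 (SE 0.48, limma adjusted p = 0.803), and 0.22 without antipodal array 2.

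OsJAZ6 (OsTIFY10a, LOC4333065) had 6596, 3197 and 5469 on the synergid arrays, against 5686, 1395 and 7897 on the antipodal ones. Its only probe set has the suffix for probes shared between transcripts. The antipodal arrays held both the highest and the lowest value. Its log2 difference of 0.29 (SE 0.52, limma adjusted p = 0.914) became -0.46 without antipodal array 2.

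Outside these subgroups the differences were negative or depended on the probe set. OsJAZ1 (OsTIFY3, LOC4337240), also known as EG2, restrains MYC2-type activity during rice spikelet development. It had 16703, 25769.5 and 22007 on the synergid arrays, against 24387, 50275 and 27851 on the antipodal ones, with antipodal array 2 at the top and synergid array 2 inside the antipodal range. The log2 difference was -0.62 (SE 0.34, limma adjusted p = 0.668), and -0.30 without antipodal array 2.

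OsJAZ3 (OsTIFY6a, LOC4345625) had 757, 336 and 561 on the synergid arrays, against 548, 668 and 1274 on the antipodal ones. Synergid array 1 lay above 2 of the 3 antipodal arrays, so the groups overlapped. Its log2 difference was -0.56 (SE 0.48, limma adjusted p = 0.799), and -0.66 without antipodal array 2.

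The probe sets of OsJAZ4 (OsTIFY6b, LOC4347000) disagreed in sign. The one with a suffix for possible cross-hybridisation had 2646, 2282 and 2852 on the synergid arrays, against 1569.9, 1797 and 1882 on the antipodal ones, with no overlap. Its log2 difference was 0.56 (SE 0.33, limma adjusted p = 0.693). The gene-specific one had 297, 144 and 233 in synergids and 221, 717 and 301 in antipodals, a log2 difference of -0.72 (SE 0.59, limma adjusted p = 0.791). Without antipodal array 2 these values were 0.58 and -0.24, so the disagreement in sign remained.

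OsJAZ2 (OsTIFY5, LOC4342421) and OsJAZ5 (OsTIFY9, LOC4335698) did not pass the filter. OsJAZ2, whose only probe set has the suffix for probes shared between transcripts, had 2.32, 4.56 and 9.51 on the synergid arrays. On the antipodal arrays it had 6.23, 140.3 and 7.52. OsJAZ5 had 5.5, 8.16 and 8.11 on the synergid arrays, against 5.33, 15.3 and 87.6 on the antipodal ones. In each gene a single antipodal array was above the rest, array 2 for OsJAZ2 and array 3 for OsJAZ5, and all other arrays stayed below 16. Their mean log2 values of 4.92 and 4.95 lay under the filter's limit of 5.72, and the next JAZ probe set, the gene-specific one of OsJAZ4, was at 8.21.

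**Figure D2:**
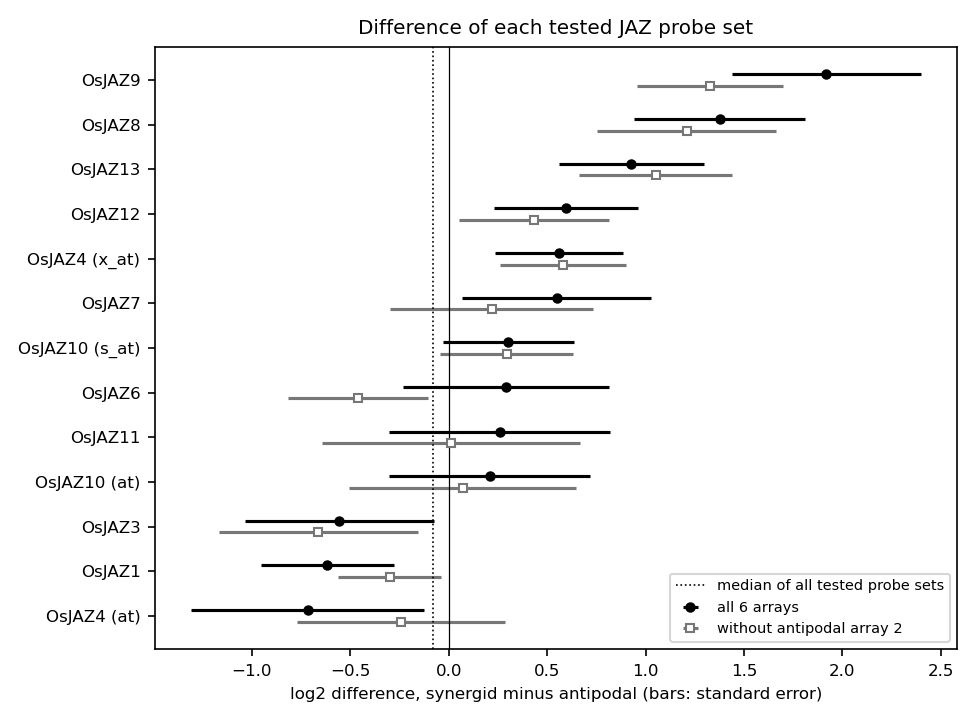
Log2 difference, synergid minus antipodal, of the 13 tested JAZ probe sets with standard errors, from all 6 arrays (black) and without antipodal array 2 (open grey squares), with a dotted line at the median of all tested probe sets (-0.08). OsJAZ9 and OsJAZ8 are at the top with 1.92 and 1.38, the gene-specific probe set of OsJAZ4 is at the bottom with -0.72, and OsJAZ6 lies on the other side of 0 without antipodal array 2.

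Among the 13 tested probe sets the log2 difference was above 0 for 10 and below 0 for 3, with a median of 0.30, beside 45.3% above 0 and a median of -0.08 over all tested probe sets. No overlap with synergids above was seen for 4 of the 13 and with synergids below for 0, beside 6.17% and 7.26% of all tested probe sets. These counts include OsJAZ8 and OsJAZ9, through which the family was chosen, so nothing is read from them. Apart from OsJAZ8 and OsJAZ9, the other 11 probe sets had log2 differences from -0.72 to 0.93 with a median of 0.29. Of these 11, 8 were above 0, and OsJAZ13 alone had an unadjusted p under 0.05 in limma, beside 8.3% of all tested probe sets.

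The members also differed in how they behaved on single arrays of a cell type. Synergid array 2 was the lowest of the 3 synergid arrays for 9 of the 13 probe sets and the highest for the other 4 (OsJAZ1, OsJAZ8, OsJAZ9 and OsJAZ13), and it was in the middle for 0. Over all tested probe sets this array was lowest for 34.4%, highest for 40.3% and in the middle for 25.3%. Antipodal array 3 was the highest antipodal array for 9 of 13, beside 24% of all tested probe sets.

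**Figure D3:**
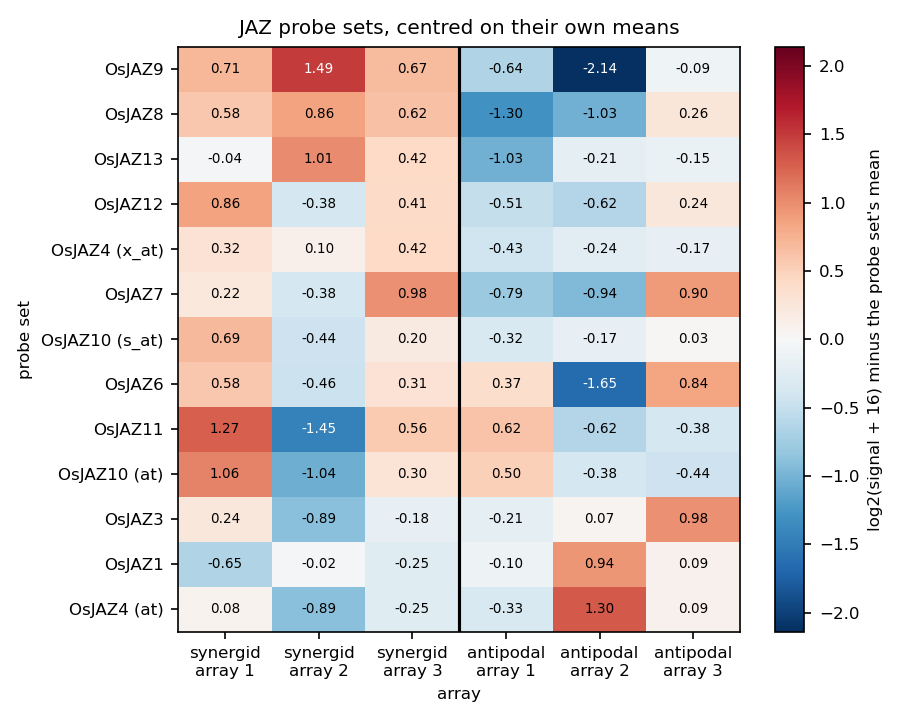
Log2(signal + 16) of the 13 tested JAZ probe sets on each array after subtracting the probe set's own mean over the 6 arrays, with synergid arrays left of antipodal arrays and red above the mean. On synergid array 2 OsJAZ9, OsJAZ13 and OsJAZ8 stand at 1.49, 1.01 and 0.86, while OsJAZ11 stands at -1.45.

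Some array-wide values also differed between the arrays, and their relation to the JAZ signals was not tested. The poly-A spike-in controls, RNAs added before amplification, had geometric mean signals of 3865, 41189 and 6738 on synergid arrays 1, 2 and 3 and of 7597, 134411 and 53145 on antipodal arrays 1, 2 and 3 (12 probe sets). Between the 2 synergid arrays and 1 antipodal array with low control signal, the log2 difference of OsJAZ9 was 1.34 and that of OsJAZ8 was 1.90. Between the 1 synergid and 2 antipodal arrays with high control signal, that of OsJAZ9 was 2.61 and that of OsJAZ8 was 1.25. The direction within a subset is fixed by the lack of overlap for which the pair was chosen, so only the sizes are described. The number of digits written also split the arrays: between array 1 of either cell type, with fewer digits, the log2 difference was 1.87 for OsJAZ8 and 1.36 for OsJAZ9, and between arrays 2 and 3 it was 1.13 and 2.20. With high against low control signal as a block in the fit, OsJAZ11 and the gene-specific probe set of OsJAZ10 turned to -0.32 and -0.23.

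Markers of the ovule tissue around the embryo sac were also higher in synergids, as OsJAZ8 and OsJAZ9 were. The summed signal of OsMADS13, OsMADS21 and OsMADS29 was 5431 to 10467 on the synergid arrays, against 2117 to 3877 on the antipodal ones, highest on synergid array 2. That peak came from OsMADS29 (8099), whereas OsMADS13 (2082) and OsMADS21 (1215) were highest on synergid array 3. All 3 genes were separately without overlap between the cell types, with synergids above, beside 7.42% of all genes tested by 1 probe set. Of the 3, 0 were at or near 0 on any array. The summed signal of 8 epidermal Roc genes was 22766 to 29162 in synergids and 15916 to 25203 in antipodals. The members did not move together: of the 6 tested, 4 had a log2 difference above 0 and 2 below. Roc3 (LOC4349488) had -1.92 (SE 0.47, limma adjusted p = 0.159), with every synergid array below every antipodal array. That of 3 green tissue genes was 3923 to 8921 in synergids and 5735 to 11493 in antipodals. Nearly all of it was CAB2R, with 3742 to 8698 in synergids and 5581 to 11253 in antipodals (log2 difference -0.65). Of the 3, 2 passed the filter, and the other of these, OsrbcS, had a log2 difference of 0.02. Endosperm storage protein genes summed to 263 to 582 in synergids and 671 to 920.5 in antipodals over 6 genes, with 1 of the 6 past the filter on dim probe sets. That gene, GLUA-2, overlapped, with 222 to 486 in synergids and 437 to 803 in antipodals (log2 difference -0.73, SE 0.49, limma adjusted p = 0.739). The sum of antipodal array 2 also held GLUB-4 (209.8) and prolamin (212.2), which did not pass the filter. The sugar transporter gene OsSUT1, used as a pollen marker, had 341 to 666 in synergids and 213 to 523 in antipodals. The part of other cells in the JAZ signals was not tested.

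The genes whose pattern over the 6 arrays was nearest to OsJAZ8 and OsJAZ9 were sought among 2184 tested genes with an informative name. Likeness was the root mean square distance in log2 units after each gene was centred on its own mean, so a gene chosen this way also shares the difference between the cell types. Nearest to OsJAZ8 were OsINP1 (LOC4330222) at 0.129, LOX5 (LOC4333823) at 0.228, the MADS-box gene OsMADS17 (LOC4336762) at 0.238, the calmodulin gene CAM (LOC4324384) at 0.249 and OsUGE-1 (LOC4339812) at 0.259. OsINP1 had 196, 240.0 and 182 on the synergid arrays, against 52.6, 48 and 144 on the antipodal ones, with antipodal array 3 the highest of its group as for OsJAZ8.

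Nearest to OsJAZ9 were CML20 (LOC4330639) at 0.212, the protein phosphatase genes OsPP2C61 (LOC4342246) at 0.220 and OsPP2C33 (LOC4332577) at 0.264, and GLT2 (LOC4339561) at 0.330 and IMCEL2 (LOC4326560) at 0.333. CML20, which encodes a calmodulin-like protein, had 543, 741 and 658 on the synergid arrays, against 232, 72 and 349 on the antipodal ones. It shared with OsJAZ9 a high synergid array 2 and a low antipodal array 2. OsJAZ8 and OsJAZ9 were 0.606 apart, with 54 named genes nearer to OsJAZ9 and 243 nearer to OsJAZ8. OsJAZ8 was the JAZ probe set nearest to OsJAZ9. The one nearest to OsJAZ8 was OsJAZ13 at 0.474, with 93 named genes nearer.

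Other jasmonate genes were described by 6 lists matched by name, with 1 probe set per gene. The names MYC2, RERJ1, JMT, CYP94, ACX and HPL were also sought and gave no member. The lists therefore do not cover the whole pathway, and the counts below hold for the listed genes only. Of 42 genes in these lists 37 were tested, and 0 were called by limma, 0 higher and 0 lower in synergids, beside 0.396% of the 15918 genes tested by 1 probe set. An unadjusted p under 0.05 was reached by 5, beside 9.91% of genes tested by 1 probe set. Log2 differences were above 0 for 15 and below 0 for 22 with a median of -0.25, beside 50.4% above 0 and a median of 0.0066 over all genes tested by 1 probe set. No overlap was seen with synergids above for 2 and with synergids below for 5, beside 7.42% and 7.58% of genes.

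The next list holds COI-type receptors, the adaptor NINJA and the TOPLESS-type co-repressors that NINJA brings to JAZ proteins. All 6 genes were tested. The F-box receptor gene OsCOI1b (LOC4338955) had 2778, 2230.5 and 3730.2 on the synergid arrays, against 2196, 1249 and 2868 on the antipodal ones (log2 difference 0.51, SE 0.38, limma adjusted p = 0.762). Its relatives OsCOI2 (LOC4332349) and OsCOI1a (LOC4324818) had log2 differences of 0.21 and 0.20. The adaptor gene NINJA1 (LOC4339584) had -0.33, and the TOPLESS-related genes TPR3 (LOC4332285) and OsASPR2 (LOC4327709) had 0.35 and 0.17. In all 6 the cell types overlapped. OsCOI1a, NINJA1 and OsASPR2 fell outside the naming rule and were added to complete the group after values were seen.

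Among transcription factors, OsbHLH148 (LOC4334060), which in rice binds JAZ proteins, had 9667, 4529.9 and 4985 on the synergid arrays, against 9677, 2142 and 7036 on the antipodal ones. The highest value of each cell type was almost the same, and the log2 difference was 0.19 (SE 0.49, limma adjusted p = 0.939). The jasmonate-induced MYB gene OsJAMyb (LOC4351131) was dim, with 83.2, 9.74 and 91.9 in synergids and 138, 35.8 and 150.3 in antipodals (-0.76, SE 0.85, limma adjusted p = 0.85).

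The other genes with a TIFY domain, whose products carry a GATA-type zinc finger in place of the Jas domain in most cases, numbered 4, of which 3 were tested, 1 above and 2 below 0. OsGATA17 (OsTIFY2a, LOC4328300), OsGATA18 (OsTIFY1a, LOC4333738) and OsGATA20 (OsTIFY2b, LOC4341953) had log2 differences of -0.25, -0.54 and 0.22. OsGATA18 had 1823, 1999.5 and 2064 in synergids and 3571, 2248 and 2922 in antipodals, with every synergid array below every antipodal array (limma adjusted p = 0.71). The difference between OsJAZ genes and these genes was not tested.

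The jasmonate biosynthesis list, matched by name, held 18 genes, of which 14 were tested, 5 of them above 0 and 9 below (median log2 difference -0.12). It takes in all genes with LOX, AOS or OPR names, and whether each acts in jasmonate synthesis was not checked. DAD1 (LOC4335701), in the list by its name alone, had 9227, 11412 and 8492 in synergids and 13961, 8001 and 10984 in antipodals (log2 difference -0.15). Whether it encodes the lipase of jasmonate synthesis with that name was not checked, and it counts among the 18 genes. OsAOC (LOC4333201), the allene oxide cyclase gene of rice, had 6685, 4675 and 7412 in synergids and 3006, 8534 and 5615 in antipodals (0.23). In both genes the cell types overlapped.

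The lipoxygenase gene LOX5, which also was the second nearest gene to OsJAZ8, had 8359, 6607 and 8385 on the synergid arrays, against 2238, 2816 and 6331 on the antipodal ones. The groups did not overlap by a narrow margin, and the log2 difference of 1.17 (SE 0.38) was not called by limma (adjusted p = 0.38). The allene oxide synthase gene AOS1 (LOC4334233), chosen after its values were seen, had 2281, 1428 and 2873 in synergids and 888, 1179 and 1324 in antipodals, also without overlap (0.91, SE 0.38, limma adjusted p = 0.55). OsOPR12 (LOC107279821) had the largest absolute difference of the list, -2.07 (SE 0.93, limma adjusted p = 0.585). It was dim, at 114, 3.11 and 5.58 in synergids and 135, 343 and 57.8 in antipodals. OsOPR7 (LOC4345762), chosen for its role, the reductase known to act in jasmonate synthesis in rice, had a synergid mean of 4371 ± 1883 and an antipodal mean of 4439.9 ± 1994 (SD, n = 3 each).

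The conjugating enzymes of the GH3 family include JAR1, which joins jasmonate to isoleucine, and members that act on auxin. All 9 were tested, 2 above and 7 below 0 (median log2 difference -0.55). OsJAR1 (OsGH3-5, LOC4339756), chosen for its role, was dim with 108, 10.5 and 96.7 in synergids and 164, 146 and 57.8 in antipodals (-0.85, SE 0.82, limma adjusted p = 0.823). OsGH3-7 (LOC4341111) and OsGH3-4 (LOC4339234) had 0.45 and -0.40. OsGH3-6 (LOC4337780) had 135, 96.6 and 132 in synergids and 312, 478 and 282 in antipodals, without overlap (-1.42, SE 0.58, limma adjusted p = 0.538).

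Of the 3 jasmonate-responsive defence genes, salT (LOC4326471), which encodes a mannose-binding lectin induced by salt and jasmonate, had the largest difference of all jasmonate genes described. It had 188, 22.2 and 218 on the synergid arrays, against 3443, 3360.2 and 366 on the antipodal ones, with no overlap. The log2 difference of -3.75 (SE 0.84) was not called by limma (adjusted p = 0.0984). It was called in 6 of 17 other settings, with adjusted p between 0.00729 and 0.787. Without synergid array 2 the log2 difference was -2.91, without antipodal array 3 it was -4.81, and without antipodal array 2 it was -3.23. A dimmer probe set of salT had 50.0, 65.0 and 53.6 on the synergid arrays, against 688, 9.53 and 138 on the antipodal ones. There the cell types overlapped, with a log2 difference of -0.96 (SE 1.00, limma adjusted p = 0.838). On antipodal array 2 the probe sets of this gene disagreed, at 3360.2 and 9.53. The lack of overlap and the size of the difference thus hold for the brighter probe set only.

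The Bowman-Birk inhibitor gene RBBI3.3 (LOC9271230) had 6192, 3258 and 7837 in synergids and 4680.5, 2037 and 6956 in antipodals (log2 difference 0.42). The pathogenesis-related gene PBZ1 (LOC4352491), named as the remaining gene of the list, had 620.5, 4.09 and 219 in synergids and 602, 390.1 and 336 in antipodals (-1.63, SE 0.95, limma adjusted p = 0.699). Both genes overlapped between the cell types.

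**Figure D4:**
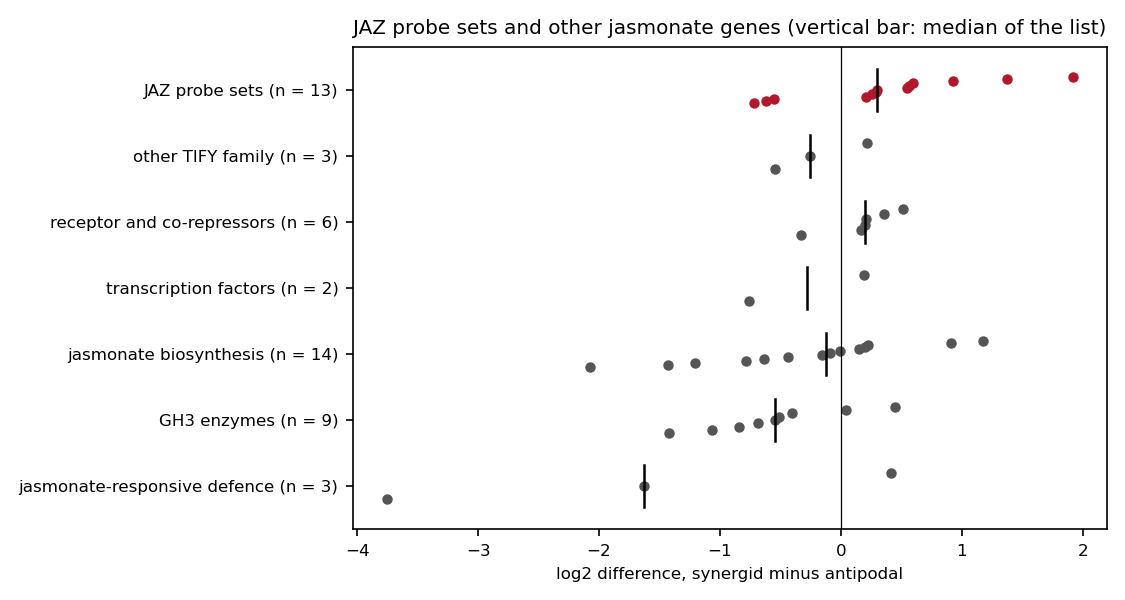
Log2 difference, synergid minus antipodal, of the 13 tested JAZ probe sets (red) and of the other tested jasmonate genes by list (grey), with a vertical bar at each list's median. The JAZ median is 0.30 over probe sets, OsJAZ8 and OsJAZ9 included, while the other lists hold 1 probe set per gene. With 1 probe set per gene the JAZ median is 0.55. The receptor and co-repressor genes lie between -0.33 and 0.51, and salT is the point at -3.75.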

How the data were processed

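The authors deposited 1 table of linear signal intensity per probe set for 6 arrays. GCOS 2.0 and MAS5 are listed in the submitters' processing notes; MAS5 summarises each array separately, and the deposited intensity has the same trimmed mean on every array. No further step is recorded. All columns were matched to samples by name.

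Of 57381 probe sets, 123 controls were left out, then the 40% with the lowest mean of log2(intensity + 16), those under 5.72. limma 3.58.1 in R 4.3.3 (eBayes with an intensity trend, 4 residual and 10.6 prior degrees of freedom) compared the groups without a block, and p-values were adjusted by Benjamini-Hochberg over 34355 probe sets. The number of arrays limits precision. The fit was tested on simulated data. Figures used matplotlib 3.10.9 in Python 3.11.15.

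Genes came from the platform annotation and synonyms from a RefSeq table of another assembly, used for names and neighbours; all 17905 loci matched. A gene with several probe sets was represented in the lists by the one with the highest mean. The members and lists were chosen with earlier results of these data known, and list patterns were trimmed of off-target name matches once the tables were seen. The remaining name matches were not checked gene by gene for function, so some may be off-target. The naming rule took every JAZ probe set, per list the 2 genes with the highest mean and the 1 with the largest absolute log2 difference, and the 5 named genes nearest to OsJAZ8 and to OsJAZ9. Genes named outside it (AOS1, OsOPR7, OsJAR1, PBZ1, OsGATA20, OsCOI1a, NINJA1 and OsASPR2) were picked after values were seen. Alternatives changed the pseudocount, filter, scaling, model and arrays. The labels state no pairing by replicate number, and the main fit used none. Deviations of same-numbered arrays correlated at 0.218, 0.116 and 0.0197, and those of differently numbered arrays at -0.153 to 0.0215. Whether same-numbered arrays were processed together was not tested, and the fit with the replicate number as a block is given below.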

Additional observations from a re-analysis of the deposited data

How the results depend on the processing

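OsJAZ8 and OsJAZ9 aside, the count of JAZ probe sets called was 0 under all 17 alternatives, among them the replicate number as a block and each left-out array (range 0 to 0); the unmoderated test called 0 of all probe sets and so bears on none of them. Over the jasmonate genes outside the family the count became 1, salT each time, with no filter, with the number format of the columns as a block, with the poly-A block and with the replicate block, and ranged from 0 to 1 when 1 array was left out, the 1 occurring when synergid array 1 (limma adjusted p = 0.0267) or antipodal array 3 (limma adjusted p = 0.00914) was dropped. The cause was not tested. The median log2 difference of all tested JAZ probe sets, here with OsJAZ8 and OsJAZ9 included, was 0.302 as reported. It ranged from 0.0721 (without synergid array 1) to 0.652 (without synergid array 2). It was 0.302 with the replicate block, 0.35 with quantile normalisation and 0.45 with median centring. The last put the median of all probe sets at 0.0669, and quantile normalisation at 0.0511, against -0.0806 as reported. OsJAZ8 ranged from 1.07 to 1.85 and OsJAZ9 from 1.33 to 2.35 over 17 alternatives, all above 0, a direction that the lack of overlap between their arrays fixes when 1 array is dropped. OsJAZ6, OsJAZ11 and the gene-specific probe set of OsJAZ10 each had a log2 difference below 0 in 2 of 17. Over all probe sets, 149 were called higher and 144 lower with the replicate block, 96 and 221 without synergid array 1, and 41 and 1 without synergid array 2, against 88 and 22 as reported.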
